A study of Mus musculus with 18 samples.

Results

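White adipose tissue (WAT), the fat tissue that stores lipid, was compared between mice that overexpress human FXR in adipose tissue and wild-type controls. The comparison uses 8 of the 18 arrays of the series, chosen by their sample titles: 4 FXR WAT arrays and 4 control WAT arrays, each hybridised with RNA of 1 sample. All mice were male C57BL/6J, 10 weeks old and fed chow, and the labelled cDNA was prepared from 500 ng of total RNA per array on Affymetrix mouse gene arrays. The promoter that drives the transgene and the fat depot sampled are not given in the sources used here. For a single contrast with brown adipose tissue (BAT), which burns lipid to make heat, the 5 FXR BAT and 5 control BAT arrays of the same genotypes and age were used; the extract text of 2 of the control BAT samples adds a feeding period. Per the design text, the samples within a group are biological replicates.

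FXR, the farnesoid X receptor, is a nuclear receptor switched on by bile acids. It pairs with the retinoid X receptor, binds an inverted repeat of the nuclear receptor motif and turns on genes such as Nr0b2, which encodes the repressor SHP. It is best known from liver and intestine, where it holds bile acid synthesis in check, while fat cells store triglyceride, burn branched-chain amino acids and secrete hormones such as leptin.

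The deposited values are linear intensities, and levels are given here as log2(intensity + 1). Intensities do not reach 0: each array has a floor, taken as the 1% quantile of its intensities, which lay between 44.9 and 46.8 on the 8 WAT arrays, while array medians lay between 60.5 and 61.7. Between 58.2% and 62.8% of probe sets lay within 1.5 times the floor, where changes are compressed, so the means of genes named below are also given as multiples of the floor. Of the 19937 genes, 9912 (49.7%) had both group means within 1.5 times the floor. Fat cell genes were bright on every WAT array: Adipoq, which encodes adiponectin, stood at 24.5 to 31.7 times the floor in FXR WAT and 27.3 to 45.2 times in control WAT, and Plin1, the perilipin coat of lipid droplets, at 36.7 to 39.2 times in FXR WAT and 41.2 to 52.9 times in control WAT. The brown fat genes Ucp1 and Cidea stayed below 1.5 times the floor in WAT, with highest values of 1.35 and 1.42 in FXR WAT and 1.23 and 1.34 in control WAT. Upk3b, a gene of the mesothelium that covers visceral fat, stood at 9.72 to 11.5 times the floor in FXR WAT and 6.31 to 13.0 times in control WAT. Adipoq and Plin1 do not set white fat apart. In FXR BAT they stood at 53.8 to 61.9 and 52.9 to 59.6 times the floor. In control BAT they stood at 59.2 to 71.3 and 65.0 to 73.5 times. Lep, the leptin gene, stood at 19.5 to 32.9 times in FXR WAT and 8.01 to 16.8 times in control WAT. It was lower in FXR BAT (2.58 to 7.28 times) and control BAT (1.61 to 1.98 times). Among 18 brown fat genes, 7 had a WAT group mean above 1.5 times the floor. Lep, Ucp1 and Cidea thus went with the WAT label, while low levels did not extend to every brown fat gene.

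Mouse Nr1h4, the gene of FXR itself, had 5.85, 6.05, 5.97 and 5.95 in FXR WAT, against 5.97, 5.89, 5.90 and 5.93 in control WAT. Its means stood at 1.33 times the floor in FXR WAT and 1.29 times in control WAT, and the groups overlapped. The probe set is annotated to the mouse gene, and whether it reads the human transcript was not tested, so it does not check the overexpression. Nr0b2 had 5.87, 5.79, 5.84 and 5.97 in FXR WAT, against 5.91, 6.00, 5.84 and 5.85 in control WAT. Nr0b2 stood at 1.25 times the floor in FXR WAT and 1.28 times in control WAT, and its groups overlapped too. Among 23 measured FXR targets, Vldlr, a receptor for triglyceride-rich lipoproteins, rose (4.35%, against 0.873% of all genes) and 22 did not pass. Without FXR WAT 1, 0 of the 23 passed. Vldlr had 8.33, 8.44, 8.35 and 8.46 in FXR WAT, against 7.76, 7.81, 8.14 and 7.92 in control WAT, so that the lowest FXR array was 0.19 log2 units above the highest control array, and rose by 0.49 ± 0.08 log2 units (SE, adjusted p = 0.0259, limma). Vldlr stood at 7.30 times the floor in FXR WAT and 5.18 times in control WAT. The bile salt pump gene Abcb11, the bile acid transporter genes Slc51a and Slc51b and the bile acid synthesis gene Cyp7a1 had group means at or below 1.36 times the floor, and the median change of the 23 genes was -0.01 log2 units, against 0.00097 over all genes.

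FXR WAT 1 stood apart from the other arrays. Its correlations with the other FXR WAT arrays, across genes, were 0.980 to 0.982, while the other pairs within the group reached 0.992. On this array 32 genes were more than 1 log2 unit above the highest of the other 7 WAT arrays, and 0 of them passed the test. The corresponding count was 3 on FXR WAT 4, 1 on FXR WAT 3 and 0 on each of the remaining arrays. Lcn5, a lipocalin secreted by the epididymis, had 8.43, 5.79, 5.82 and 5.85 in FXR WAT, against 5.78, 5.85, 5.81 and 5.72 in control WAT. Serpina1f, a serpin of the epididymis, had 10.38, 6.34, 5.79 and 6.71 in FXR WAT, against 6.37, 6.14, 7.82 and 7.23 in control WAT. Prm2, the protamine that packs sperm DNA, had 8.56, 6.21, 6.02 and 6.16 in FXR WAT, against 6.26, 6.06, 6.04 and 6.06 in control WAT. FXR WAT 1 was the high array for each of these genes, and control WAT 3 and 4 were above the other controls for Serpina1f. Lcn5 stood at 1.91 times the floor in FXR WAT and 1.18 times in control WAT. Serpina1f stood at 3.41 times the floor in FXR WAT and 2.55 times in control WAT. Prm2 stood at 2.30 times the floor in FXR WAT and 1.47 times in control WAT. The same array was the highest for Spink8, which had 8.88, 6.12, 5.73 and 6.77 in FXR WAT, against 6.02, 5.92, 7.09 and 5.93 in control WAT, and for Odf1, a sperm tail protein gene, which had 8.37, 6.27, 6.01 and 6.13 in FXR WAT, against 6.60, 6.01, 6.31 and 6.34 in control WAT. It was also the highest for Ptgs2, the inducible cyclooxygenase gene, which had 10.31, 6.10, 6.24 and 6.26 in FXR WAT, against 6.02, 5.91, 8.26 and 7.32 in control WAT, with control WAT 3 and 4 next. Spink8 stood at 2.53 times the floor in FXR WAT and 1.61 times in control WAT. Odf1 stood at 2.23 times the floor in FXR WAT and 1.71 times in control WAT. Ptgs2 stood at 3.22 times the floor in FXR WAT and 2.52 times in control WAT.

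Over the whole list of 40 measured epididymis genes, the summed intensity was 4889 on FXR WAT 1, 2132 to 2376 on the other FXR arrays and 2205 to 2441 in controls. Of these genes 25 lay within 1.5 times the floor on all 8 arrays, among them the defining markers Crisp4, Lcn8 and Gpx5, while 12 exceeded it on FXR WAT 1. On all of the other 7 arrays 30 of the 40 lay within it, and the rest exceeded it on at least 1 of those arrays. The 15 sperm and testis genes summed to 1825 on FXR WAT 1, 855 to 897 on the other FXR arrays and 862 to 929 in controls, and 14 of the 15 were highest on FXR WAT 1. The 18 epithelial genes summed to 1766 on that array, 1158 to 1310 on the other FXR arrays and 1136 to 1190 in controls. FXR WAT 4 differed in another way: it was the highest of the 8 arrays for 21 of 23 cell cycle genes, 11 of 13 hepatocyte genes, 9 of 13 fibrillar collagen genes, 14 of 23 collagen network genes, 9 of 16 elastic fibre genes, 12 of 17 collagen assembly genes and 12 of 25 matrix protease genes. The 23 cell cycle genes summed to 2132 on FXR WAT 4, 1736 to 1792 on the other FXR arrays and 1617 to 1777 in controls, and all 23 of their changes were above 0, with a median of 0.08. The part of these cells in the results was not tested.

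**Figure D1:**
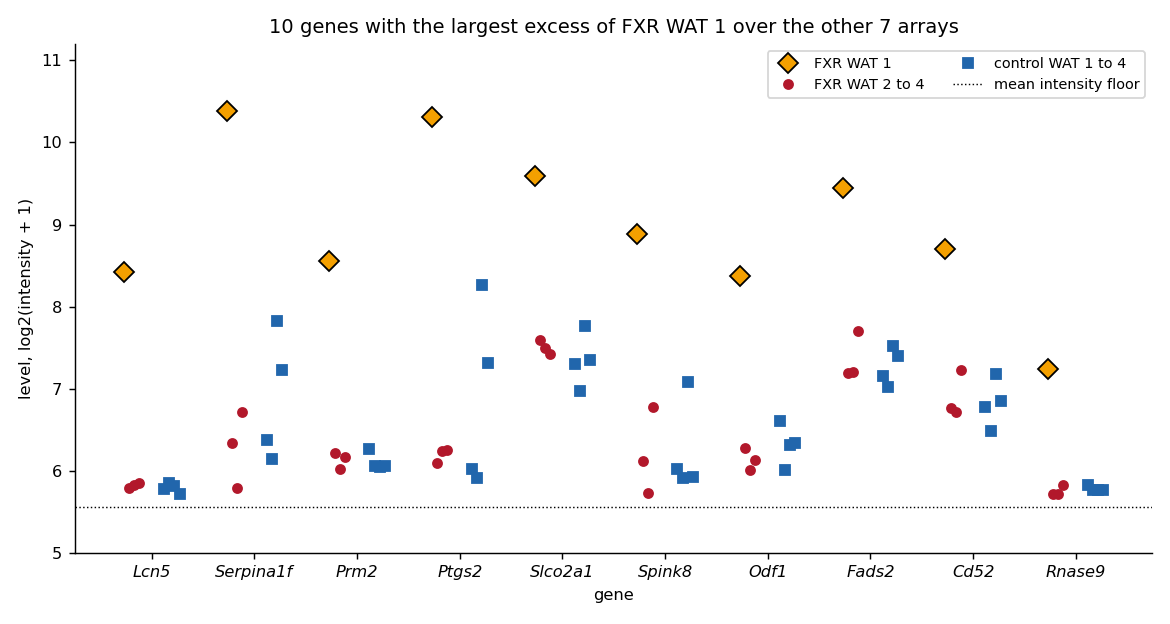
Levels, as log2(intensity + 1), of the 10 genes with the largest excess of FXR WAT 1 over the next highest WAT array; diamonds are FXR WAT 1, circles the other 3 FXR WAT arrays, squares the 4 control WAT arrays and the dotted line the mean floor. FXR WAT 1 lies above every other array for each gene, for example at 8.43 for Lcn5 against 5.72 to 5.85 on the other 7 arrays.

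The comparison asked which genes differ in WAT when human FXR is raised in fat. The largest rises in FXR WAT included matrix genes (Cilp, Eln, Mgp) and genes tied to fat cell growth (Mest, Lep), and the largest falls included Bcat2 and Dbt of branched-chain amino acid breakdown. In all 265 genes passed an adjusted p of 0.05 with limma: 174 were higher in FXR WAT (0.873% of the genes tested) and 91 were lower (0.456%). All 265 had groups that did not overlap, which over all genes held for 4.31% in the higher direction and 3.47% in the lower. Called changes had a median size of 0.40 log2 units. There were 46 genes at least 1.5-fold higher, 13 at least 1.5-fold lower, 14 at least 2-fold higher and 2 at least 2-fold lower. In 26 of the called rises the control mean, and in 5 of the called falls the FXR mean, lay within 1.5 times the floor. Both means lay there in 3 called genes. In bulk tissue, fewer cells of a type and less RNA per cell cannot be told apart.

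Without FXR WAT 1, 73 genes were higher and 32 lower, and 98 of the 265 calls remained. Leaving out control WAT 1 gave 23 higher and 26 lower, control WAT 2 gave 32 and 22, and control WAT 4 gave 40 and 24. Without FXR WAT 4 there were 81 higher and 28 lower, and without FXR WAT 2 there were 91 and 38; 37 of the 265 genes kept their call whichever array was left out. Of the 15 largest rises and 15 largest falls, 23 kept their call without FXR WAT 1, and their changes were 0.833 to 1.18 times those over all arrays.

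**Figure D2:**
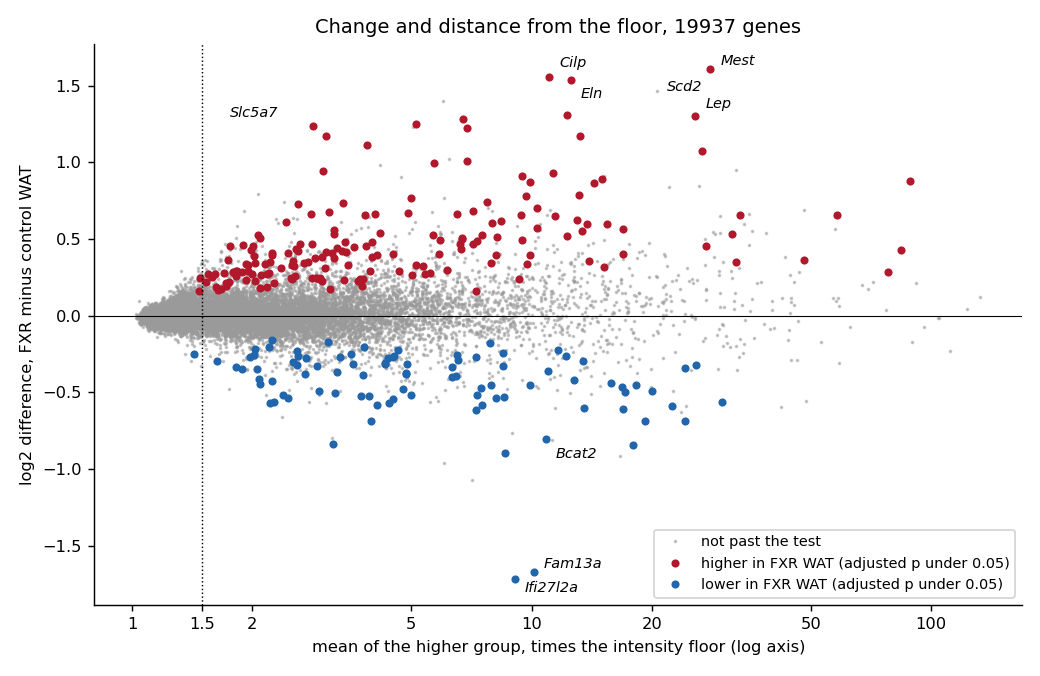
Log2 difference of each of the 19937 genes, FXR minus control WAT, against the mean of its higher group in multiples of the floor (log axis); the dotted line marks 1.5 times the floor. Red points (174) and blue points (91) passed the test, and grey points did not; Scd2, at 1.47 log2 units, is among the grey points.

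Of the 15 largest rises, Mest and Lep belonged to the fat tissue expansion list, made of genes linked to fat mass gain in mice. Oxtr, also described here, did not. Where only brackets follow a gene below, they give its log2 change, FXR minus control WAT, and its mean in FXR WAT and in control WAT in multiples of the floor. Mest, an imprinted gene whose expression follows fat cell enlargement in mice, had 10.46, 10.36, 10.41 and 10.10 in FXR WAT, against 8.47, 9.00, 8.77 and 8.67 in control WAT. The lowest FXR array was 1.11 log2 units above the highest control, and Mest rose by 1.61 ± 0.11 log2 units (SE, adjusted p = 0.00135, limma). Mest stood at 28.1 times the floor in FXR WAT and 9.17 times in control WAT. Lep, which encodes the satiety hormone leptin, had 10.53, 9.83, 10.29 and 10.18 in FXR WAT, against 8.54, 8.70, 9.56 and 8.83 in control WAT. The FXR arrays were again higher, but control WAT 3 lay 0.27 log2 units below FXR WAT 2; Lep rose by 1.30 ± 0.22 log2 units (SE, adjusted p = 0.0323, limma), and by 1.19 without FXR WAT 1 (adjusted p = 0.0700, limma). Lep stood at 25.7 times the floor in FXR WAT and 10.4 times in control WAT. Oxtr, the oxytocin receptor gene, had 8.93, 7.97, 8.17 and 8.07 in FXR WAT, against 7.10, 6.93, 6.96 and 7.00 in control WAT. FXR WAT 1 was the highest, and the controls spanned 0.16 log2 units. Oxtr rose by 1.28 ± 0.18 log2 units (SE, adjusted p = 0.021, limma), and by 1.07 without FXR WAT 1 (adjusted p = 0.000714, limma). Of the 8 fits with 1 array left out, 5 kept the call of Oxtr, 2 that of Lep and 8 that of Mest. Oxtr stood at 6.75 times the floor in FXR WAT and 2.75 times in control WAT. Of the 14 measured genes of the fat tissue expansion list, 3 rose (21.4%, against 0.873% of all genes), 0 fell and 11 did not pass. Those that rose were Mest, Lep and the growth factor homologue gene Fgf13 (0.46, 1.76 and 1.27 times the floor). The median change was 0.25 log2 units, against 0.00097 over all genes. Lists and their members were chosen with earlier results of these data known. List shares, here and in the other paragraphs, therefore describe the lists and test nothing. Of the 14, 2 were higher without FXR WAT 1. The Wnt antagonist gene Sfrp5 (1.40, 6.02 and 2.26 times the floor), also of this list, did not pass.

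RefSeq promoter windows (GRCm38.p6, 250 bases before to 50 after the start) are shown for Lep, Oxtr and Fam13a. They belong to 5 genes picked from the largest changes, whose windows were marked for motifs. The windows of Slc1a3 and Cilp are not shown. That of Slc1a3 held TATAAA, the letters of the TATA box, on the strand opposite to the gene and 161 bases before its start. On either strand these letters occur in 13.6% of all windows. The search was for exact letters. The Cilp window held no exact match of the motifs searched, while those shown hold at least 1. Capitals mark these motifs, each read 5′ to 3′ on the gene's strand: TTGCGCAA, the C/EBP palindrome, starts 55 bases before the start of Lep (chr6:29059971-29060270, plus strand); AGGTCA, the nuclear receptor motif, and CACGTG, the E-box, start 98 and 43 bases before the start of the Oxtr window (chr6:112489776-112490075, minus strand); AGGTCA starts 8 bases before that of Fam13a (chr6:59024453-59024752, minus strand).
Lep: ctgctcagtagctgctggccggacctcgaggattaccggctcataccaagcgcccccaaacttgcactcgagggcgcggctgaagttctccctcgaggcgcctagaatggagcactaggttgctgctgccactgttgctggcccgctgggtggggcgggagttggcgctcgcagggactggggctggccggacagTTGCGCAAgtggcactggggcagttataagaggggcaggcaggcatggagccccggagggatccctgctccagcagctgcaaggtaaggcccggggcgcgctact
Oxtr: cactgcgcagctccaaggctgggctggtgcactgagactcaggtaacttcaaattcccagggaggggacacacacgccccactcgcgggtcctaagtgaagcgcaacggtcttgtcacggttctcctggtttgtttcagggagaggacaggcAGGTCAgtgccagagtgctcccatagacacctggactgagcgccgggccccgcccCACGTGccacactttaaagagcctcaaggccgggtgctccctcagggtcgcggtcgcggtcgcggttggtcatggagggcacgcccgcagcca
Fam13a: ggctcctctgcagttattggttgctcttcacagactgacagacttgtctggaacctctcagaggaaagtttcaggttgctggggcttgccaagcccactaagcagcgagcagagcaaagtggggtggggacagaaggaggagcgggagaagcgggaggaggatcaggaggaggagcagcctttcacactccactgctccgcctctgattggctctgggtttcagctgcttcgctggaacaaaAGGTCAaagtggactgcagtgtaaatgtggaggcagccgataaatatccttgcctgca

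The start in the Oxtr window lies 1210 bases inside the annotated gene, which ends at 112491035, so that window is of a start within the gene; for Lep and Fam13a the start is that of the annotated gene. Both strands were searched. TTGCGCAA occurs in 0.183% of the 32851 windows, CACGTG in 7.15% and AGGTCA in 16.3%. Of the higher genes with a window, 129 in number, 16.3% held AGGTCA, and of the 66 lower genes with one, 18.2% did, against 18.1% of all genes with a window. The element that FXR binds, IR1 (AGGTCA and its inverse with 1 base between them), occurs in 3 windows in all (0.009%) and in 0 of the windows of the 195 called genes that have one; the letters of a window say nothing of sites elsewhere.

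The other large rises had diverse roles. Mtarc1, a molybdenum enzyme of the outer mitochondrial membrane, had 8.30, 8.03, 7.52 and 7.69 in FXR WAT, against 6.59, 6.46, 6.70 and 6.78 in control WAT, and rose by 1.25 ± 0.16 log2 units (SE, adjusted p = 0.0122, limma). Mtarc1 stood at 5.13 times the floor in FXR WAT and 2.13 times in control WAT. FXR WAT 1 and 2 were the higher pair, and the groups did not overlap. Paqr9, a membrane protein of the progestin and adiponectin receptor family, had 8.87, 8.61, 7.83 and 7.94 in FXR WAT, against 7.33, 6.85, 6.96 and 7.21 in control WAT. The same 2 arrays were the highest for Paqr9, which rose by 1.23 ± 0.23 log2 units (SE, adjusted p = 0.0422, limma), and by 1.04 without FXR WAT 1 (adjusted p = 0.0639, limma). Paqr9 stood at 6.91 times the floor in FXR WAT and 2.93 times in control WAT. Slc5a7, the high-affinity choline transporter gene, had 7.35, 7.22, 7.19 and 6.41 in FXR WAT, against 5.84, 5.74, 5.78 and 5.85 in control WAT. FXR WAT 4 was well below the other FXR arrays, and the controls were near the floor; Slc5a7 rose by 1.24 ± 0.18 log2 units (SE, adjusted p = 0.0216, limma). Slc5a7 stood at 2.84 times the floor in FXR WAT and 1.19 times in control WAT. Olfml3, a secreted glycoprotein gene, had 8.54, 8.24, 8.13 and 8.33 in FXR WAT, against 7.38, 7.24, 7.49 and 7.09 in control WAT. The highest control was 0.65 log2 units below the lowest FXR array, and Olfml3 rose by 1.01 ± 0.10 log2 units (SE, adjusted p = 0.00499, limma). Olfml3 stood at 6.88 times the floor in FXR WAT and 3.39 times in control WAT. The paternally expressed gene Peg10 had 7.95, 7.22, 7.67 and 7.10 in FXR WAT, against 6.24, 6.19, 6.41 and 6.64 in control WAT, and rose by 1.12 ± 0.18 log2 units (SE, adjusted p = 0.0291, limma). Peg10 stood at 3.88 times the floor in FXR WAT and 1.77 times in control WAT. Mest and Peg10 were the members of an 18-gene imprinted list that rose (11.1%, against 0.873% of all genes). In that list 0 fell, 16 did not pass and the median change was -0.01. Igf2 and Dlk1 stood at or below 1.65 times the floor in both groups.

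**Figure D3:**
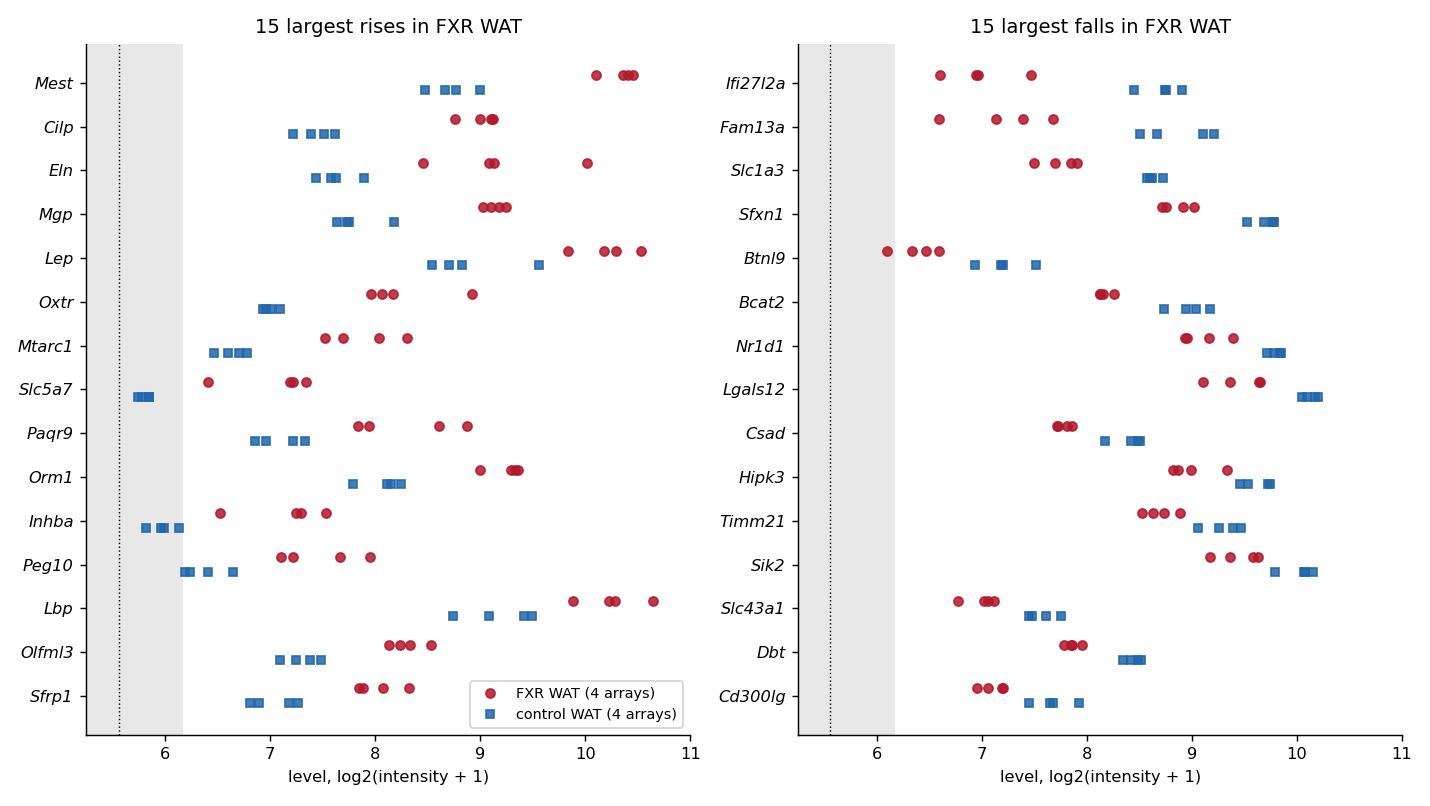
Levels, as log2(intensity + 1), of the 15 largest rises (left) and 15 largest falls (right) on each array, with FXR WAT as red circles above control WAT as blue squares; the dotted line is the mean floor and the grey band reaches 1.5 times the highest floor. The groups do not overlap for any of the 30 genes, and control levels of Slc5a7 (5.74 to 5.85) and Inhba (5.82 to 6.13) lie in the grey band.

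The largest falls were an interferon-induced gene, a gene linked to fat distribution and genes of amino acid handling. Ifi27l2a, induced by interferon, had 7.46, 6.97, 6.94 and 6.60 in FXR WAT, against 8.75, 8.74, 8.90 and 8.45 in control WAT. The lowest control was 0.99 log2 units above the highest FXR array, and Ifi27l2a fell by 1.72 ± 0.17 log2 units (SE, adjusted p = 0.00437, limma). Ifi27l2a stood at 2.75 times the floor in FXR WAT and 9.07 times in control WAT. It was the member of 23 measured interferon-induced genes that passed (4.35%, against 0.456% of all genes lower), and 22 did not. Of the 23, 9 lay within 1.5 times the floor in both groups, and the median change was -0.05. Fam13a, a gene whose human counterpart lies in a region associated with fat distribution, had 6.59, 7.39, 7.68 and 7.14 in FXR WAT, against 8.51, 9.21, 9.11 and 8.67 in control WAT. FXR WAT 1 was the lowest, all FXR arrays were below all controls, and Fam13a fell by 1.67 ± 0.24 log2 units (SE, adjusted p = 0.021, limma), and by 1.47 without FXR WAT 1. Fam13a stood at 3.18 times the floor in FXR WAT and 10.1 times in control WAT. Slc1a3, which carries glutamate and aspartate into cells, had 7.50, 7.69, 7.85 and 7.90 in FXR WAT, against 8.62, 8.72, 8.60 and 8.57 in control WAT. The controls spanned 0.15 log2 units and lay above every FXR array, and Slc1a3 fell by 0.89 ± 0.08 log2 units (SE, adjusted p = 0.00437, limma). Slc1a3 stood at 4.61 times the floor in FXR WAT and 8.56 times in control WAT. Sfxn1, which carries serine into mitochondria, had 8.75, 9.02, 8.91 and 8.72 in FXR WAT, against 9.69, 9.77, 9.52 and 9.78 in control WAT, and fell by 0.84 ± 0.08 log2 units (SE, adjusted p = 0.00437, limma). Sfxn1 stood at 10.02 times the floor in FXR WAT and 17.9 times in control WAT. Slc1a3 and Sfxn1 fell while Slc1a4 (0.18, 1.67 and 1.47 times the floor), a neutral amino acid transporter gene, rose. Of the 21-gene serine and one-carbon list 9.52% thus fell and 4.76% rose, against 0.456% and 0.873% of all genes. The other 18 genes did not pass, among them Phgdh (0.25, 11.7 and 9.83 times the floor), which opens serine synthesis. In that list, Slc1a3 and Sfxn1 were lower and 0 genes higher without FXR WAT 1.

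Among the remaining falls, Nr1d1, which encodes the clock repressor REV-ERB alpha, had 8.95, 9.39, 9.16 and 8.94 in FXR WAT, against 9.78, 9.72, 9.85 and 9.84 in control WAT. The lowest control was 0.33 log2 units above the highest FXR array, and Nr1d1 fell by 0.69 ± 0.09 log2 units (SE, adjusted p = 0.0181, limma). Nr1d1 stood at 11.97 times the floor in FXR WAT and 19.3 times in control WAT. Nr1d1 makes up 5.26% of the 19 clock genes, against 0.456% of all genes called lower. The other 18 of 19 clock genes did not pass, among them Dbp (-0.37, 2.12 and 2.75 times the floor), Per3 (-0.26, 1.72 and 2.06 times the floor) and Arntl (0.20, 2.08 and 1.80 times the floor). Csad, the enzyme that commits cysteine to taurine, had 7.73, 7.71, 7.81 and 7.86 in FXR WAT, against 8.50, 8.48, 8.17 and 8.42 in control WAT, with every FXR array below every control, and fell by 0.62 ± 0.07 log2 units (SE, adjusted p = 0.00953, limma). Csad stood at 4.75 times the floor in FXR WAT and 7.27 times in control WAT. Falls of 0.57 to 0.84 log2 units were measured for the butyrophilin-like gene Btnl9 (-0.84, 1.78 and 3.18 times the floor), the kinase genes Hipk3 (-0.61, 11.1 and 16.96 times the floor) and Sik2 (-0.59, 15.03 and 22.5 times the floor), the mitochondrial import gene Timm21 (-0.60, 8.97 and 13.6 times the floor), the neutral amino acid transporter gene Slc43a1 (-0.58, 2.74 and 4.10 times the floor) and the endothelial surface gene Cd300lg (-0.57, 2.96 and 4.40 times the floor). Without FXR WAT 1, Btnl9, Hipk3, Sik2 and Cd300lg had adjusted p values of 0.0520 to 0.0918 (limma).

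Genes of the extracellular matrix were among the rises, in collagens, elastic fibres and matricellular proteins, the secreted proteins that tune cell contact with matrix. Of 114 measured genes over the matrix lists, 21 rose (18.4%, against 0.873% of all genes), 1 fell (0.877%, against 0.456%) and 92 did not pass. A change above 0 was found for 96 of the 114 (84.2%, against 50.8% of all genes). The median change was 0.25 log2 units (0.29 without FXR WAT 1, 0.21 without FXR WAT 4), against 0.00097 over all genes. By list, the share that rose was 37.5% for elastic fibre, 20% for matricellular, 17.6% for collagen assembly, 17.4% for collagen network, 10% for proteoglycan and 7.69% for fibrillar collagen genes. Without FXR WAT 1, 8 of the 114 were called higher and 0 lower. Cilp, a secreted matrix protein that can bind TGF-beta, had 8.76, 9.10, 9.12 and 9.00 in FXR WAT, against 7.22, 7.39, 7.51 and 7.62 in control WAT. The lowest FXR array was 1.14 log2 units above the highest control, and Cilp rose by 1.56 ± 0.10 log2 units (SE, adjusted p = 0.00101, limma). Cilp stood at 11.1 times the floor in FXR WAT and 3.73 times in control WAT. Mgp, the matrix Gla protein that restrains calcification, had 9.25, 9.10, 9.18 and 9.03 in FXR WAT, against 7.75, 7.64, 8.18 and 7.73 in control WAT. The FXR arrays spanned 0.22 log2 units and lay above all controls, and Mgp rose by 1.31 ± 0.11 log2 units (SE, adjusted p = 0.00398, limma). Mgp stood at 12.2 times the floor in FXR WAT and 4.90 times in control WAT. Eln, which encodes elastin, had 8.46, 9.09, 9.14 and 10.01 in FXR WAT, against 7.43, 7.63, 7.89 and 7.58 in control WAT. FXR WAT 4 was the highest and FXR WAT 1 the lowest of the FXR arrays; Eln rose by 1.54 ± 0.28 log2 units (SE, adjusted p = 0.0383, limma), by 1.78 without FXR WAT 1 and by 1.26 without FXR WAT 4. Eln stood at 12.5 times the floor in FXR WAT and 4.29 times in control WAT.

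Within the elastic fibre list 6 of 16 genes rose and 10 did not pass: beside Eln these were the fibulins Fbln2 (0.93, 11.3 and 5.91 times the floor) and Fbln1 (0.61, 7.97 and 5.21 times the floor), the microfibril gene Mfap4 (0.66, 2.81 and 1.76 times the floor) and the latent TGF-beta binding proteins Ltbp4 (0.63, 13.03 and 8.40 times the floor) and Ltbp1 (0.29, 3.93 and 3.19 times the floor). In the collagen network list 4 of 23 rose and 19 did not pass. They were Col6a1 (0.89, 15.02 and 8.04 times the floor) and Col6a2 (0.87, 9.89 and 5.38 times the floor), whose chains form the beaded filaments of collagen VI around fat cells, the basement membrane collagen gene Col15a1 (0.65, 11.4 and 7.26 times the floor) and the laminin gene Lamc1 (0.32, 15.2 and 12.1 times the floor). Of 13 fibrillar collagen genes, Col12a1 (0.36, 1.74 and 1.35 times the floor) rose and 12 did not pass, with Col1a1 (0.85, 26.2 and 14.5 times the floor), Col1a2 (0.67, 35.04 and 22.01 times the floor) and Col3a1 (0.54, 38.6 and 26.5 times the floor) higher on FXR WAT 4 than on any other array; the median change of this list was 0.35 over all arrays and 0.16 without FXR WAT 4. Of 17 enzymes and chaperones of collagen assembly 3 rose, namely the crosslinking gene Loxl1 (0.54, 4.17 and 2.86 times the floor), the chaperone gene Serpinh1 (0.40, 4.51 and 3.39 times the floor) and the procollagen protease gene Bmp1 (0.33, 5.15 and 4.07 times the floor), and 14 did not pass. Of 25 matricellular genes 5 rose and 20 did not pass: Cilp, Mgp, Sparc (0.43, 84.1 and 62.3 times the floor), Tnxb (0.52, 8.18 and 5.70 times the floor) and Spon1 (0.47, 2.63 and 1.89 times the floor). The thrombospondin genes Thbs1 (-0.92, 8.82 and 16.6 times the floor) and Thbs2 (-0.96, 3.10 and 6.02 times the floor) had changes below 0 and did not pass. Among 20 proteoglycans, biglycan Bgn (0.86, 14.4 and 7.85 times the floor) and glypican Gpc1 (0.41, 2.46 and 1.84 times the floor) rose, podocan Podn (-0.45, 5.81 and 7.93 times the floor) fell and 17 did not pass. Without FXR WAT 1, 4 of the elastic fibre genes, 1 of the collagen network, 1 of the fibrillar collagens, 2 of the matricellular genes and 0 of the collagen assembly genes and proteoglycans were called.

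Of 25 matrix proteases and their inhibitors 4 rose (16%, against 0.873% of all genes), 1 fell (4%, against 0.456%) and 20 did not pass. Mmp2, the gelatinase that cleaves denatured collagen, had 8.65, 8.48, 9.07 and 8.88 in FXR WAT, against 7.85, 7.74, 8.01 and 7.83 in control WAT, with the groups 0.46 log2 units apart, and rose by 0.91 ± 0.12 log2 units (SE, adjusted p = 0.0141, limma). Mmp2 stood at 9.46 times the floor in FXR WAT and 5.01 times in control WAT. The cathepsin gene Ctsl (0.66, 33.2 and 20.96 times the floor), the metalloprotease gene Adam19 (0.21, 2.27 and 1.95 times the floor) and Serpinf1 (0.74, 7.74 and 4.61 times the floor), which encodes pigment epithelium-derived factor, rose, and the other gelatinase gene Mmp9 (-0.54, 1.69 and 2.46 times the floor) fell. The macrophage elastase gene Mmp12 (0.98, 4.16 and 2.09 times the floor) did not pass. Of the 25, 2 were higher and 1 lower without FXR WAT 1.

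**Figure D4:**
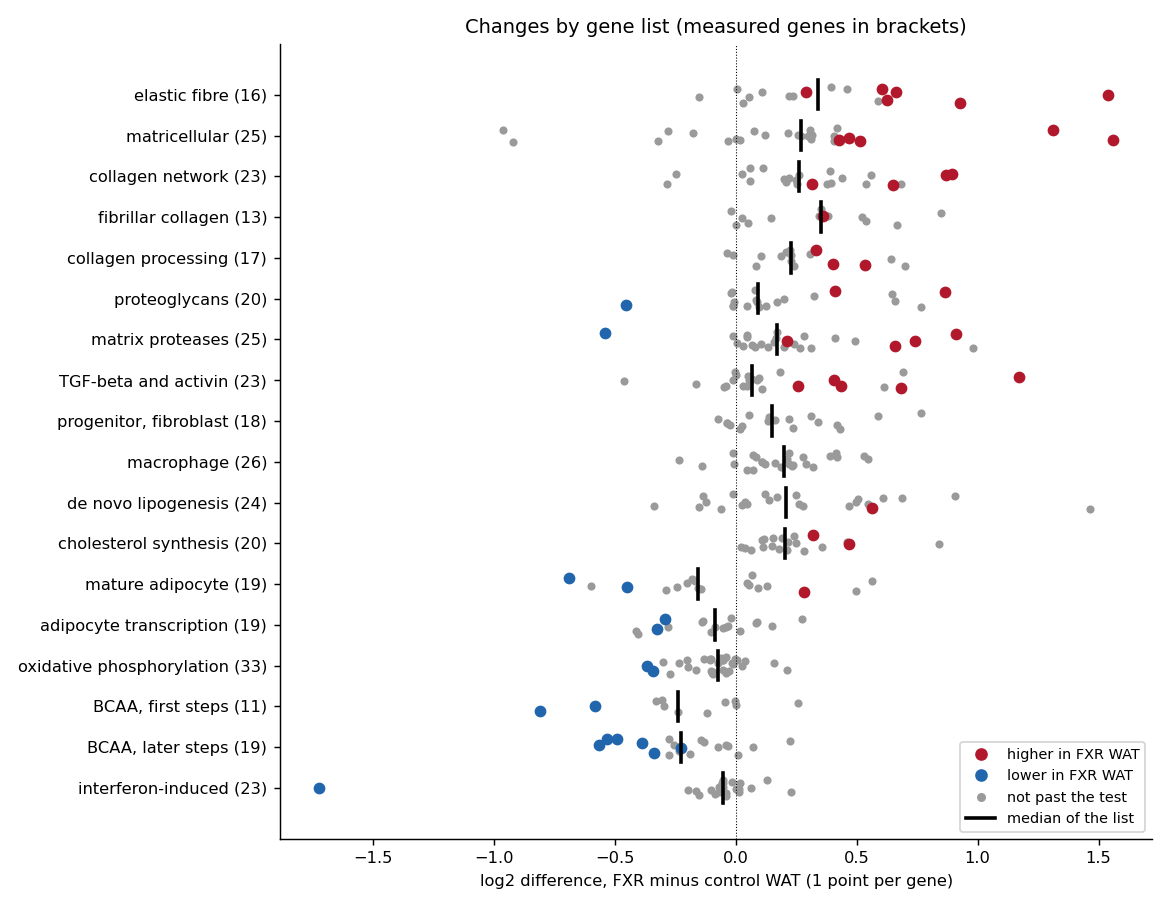
Log2 differences, FXR minus control WAT, of the measured genes of 18 lists, with 1 point per gene, red for genes called higher, blue for genes called lower and grey for the rest; black bars are list medians. Matrix lists lie mostly to the right of 0, with medians of 0.09 to 0.35, and both lists of branched-chain amino acid (BCAA) breakdown lie to the left, with medians of -0.24 and -0.22.

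Some secreted regulators of tissue growth rose. Inhba, the subunit that dimerises into activin A, had 6.52, 7.29, 7.24 and 7.54 in FXR WAT, against 5.82, 5.99, 6.13 and 5.96 in control WAT. FXR WAT 1 was the lowest FXR array, the controls were close to the floor, and Inhba rose by 1.17 ± 0.19 log2 units (SE, adjusted p = 0.0271, limma). Inhba stood at 3.06 times the floor in FXR WAT and 1.34 times in control WAT. Of 23 genes of TGF-beta and activin signalling 5 rose (21.7%, against 0.873% of all genes) and 18 did not pass. Those that rose were Inhba, the ligand genes Tgfb3 (0.41, 3.16 and 2.37 times the floor) and Gdf10 (0.69, 7.13 and 4.41 times the floor) and the activin-binding antagonists Fst (0.26, 2.56 and 2.13 times the floor) and Fstl3 (0.44, 2.58 and 1.89 times the floor). The receptor genes Tgfbr1 (0.10, 2.39 and 2.22 times the floor), Tgfbr2 (0.11, 5.30 and 4.90 times the floor) and Acvr1c (-0.46, 10.8 and 14.8 times the floor) did not pass. Of the 23, 2 were higher without FXR WAT 1. Of 21 Wnt modulators 2 rose (9.52%, against 0.873% of all genes) and 19 did not pass. Sfrp1, a secreted Wnt antagonist, had 7.88, 8.08, 7.85 and 8.33 in FXR WAT, against 6.89, 7.18, 7.27 and 6.81 in control WAT, with the groups 0.58 log2 units apart, and rose by 1.00 ± 0.13 log2 units (SE, adjusted p = 0.0141, limma). Sfrp1 stood at 5.68 times the floor in FXR WAT and 2.83 times in control WAT, and the ligand gene Wnt5a (0.23, 3.40 and 2.88 times the floor) rose as well. Of 14 genes of the insulin-like growth factor system 0 passed; Igfals (0.50, 3.45 and 2.42 times the floor) and Igfbp5 (0.46, 13.9 and 10.05 times the floor) had the smallest p values.

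Genes that break down the branched-chain amino acids leucine, isoleucine and valine were among the falls. Fat cells first transaminate these amino acids, then decarboxylate the ketoacids in a mitochondrial complex, and finally pass each acyl group through its own chain of enzymes. Over both lists of this pathway 8 of 30 genes fell (26.7%, against 0.456% of all genes), 0 rose (against 0.873%) and 22 did not pass. Changes were below 0 for 25 of the 30, against 9813 of all 19937 genes, and the median was -0.23 (-0.21 without FXR WAT 1). The summed intensity of the 19 genes of the later steps was 6184 to 6745 in FXR WAT and 7646 to 7889 in control WAT, so that these sums did not overlap. This was not particular to the pathway. Sums were also apart for oxidative phosphorylation (14128 to 14973 in FXR WAT, 15408 to 16205 in control WAT) and fatty acid oxidation (7265 to 7732 and 7789 to 8372). The same held for fat cell transcription factors (2816 to 3028 and 3265 to 3394). Citric acid cycle sums overlapped (9137 to 10302 and 9381 to 10753). Without FXR WAT 1, 4 of the 30 were called lower.

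Bcat2, the mitochondrial transaminase that opens the pathway, had 8.12, 8.13, 8.26 and 8.15 in FXR WAT, against 9.17, 9.04, 8.73 and 8.94 in control WAT. The FXR arrays spanned 0.14 log2 units and lay at least 0.47 below the lowest control, and Bcat2 fell by 0.81 ± 0.08 log2 units (SE, adjusted p = 0.00585, limma). Bcat2 stood at 6.22 times the floor in FXR WAT and 10.9 times in control WAT. Dbt, the core subunit of the ketoacid dehydrogenase, had 7.86, 7.95, 7.85 and 7.78 in FXR WAT, against 8.51, 8.48, 8.34 and 8.42 in control WAT, with the groups 0.39 log2 units apart, and fell by 0.58 ± 0.05 log2 units (SE, adjusted p = 0.00398, limma). Dbt stood at 5.03 times the floor in FXR WAT and 7.51 times in control WAT. The subunit genes Bckdha (-0.30, 6.66 and 8.20 times the floor) and Bckdhb (-0.30, 4.23 and 5.18 times the floor), the activating phosphatase gene Ppm1k (-0.33, 2.39 and 3.00 times the floor), the inhibitory kinase gene Bckdk (-0.12, 4.84 and 5.23 times the floor) and the mitochondrial carrier gene Slc25a44 (-0.24, 5.01 and 5.89 times the floor) did not pass. Aldh6a1, which ends valine breakdown, had 9.75, 9.85, 10.04 and 9.81 in FXR WAT, against 10.38, 10.50, 10.46 and 10.39 in control WAT. No FXR array reached the lowest control, and Aldh6a1 fell by 0.56 ± 0.06 log2 units (SE, adjusted p = 0.0075, limma). Aldh6a1 stood at 20.3 times the floor in FXR WAT and 29.9 times in control WAT. On the leucine arm Ivd (-0.49, 14.3 and 19.98 times the floor), Mccc1 (-0.53, 5.93 and 8.55 times the floor) and Mccc2 (-0.39, 2.90 and 3.79 times the floor) fell, which act in turn on isovaleryl-CoA and its product. The enoyl-CoA hydratase gene Echs1 (-0.34, 5.02 and 6.32 times the floor) and the methylmalonyl-CoA mutase gene Mmut (-0.22, 10.03 and 11.7 times the floor) fell as well. Of the genes that passed in this pathway, Bcat2, Dbt, Aldh6a1 and Mccc2 kept their calls whichever of the 8 arrays was left out.

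Genes that define the fat cell passed in both directions. Of 19 mature adipocyte genes 1 rose (5.26%, against 0.873% of all genes), 2 fell (10.5%, against 0.456%) and 16 did not pass, with a median change of -0.16 (-0.09 without FXR WAT 1). Lgals12, a galectin on lipid droplets, had 9.11, 9.63, 9.64 and 9.36 in FXR WAT, against 10.10, 10.20, 10.04 and 10.17 in control WAT, and fell by 0.69 ± 0.11 log2 units (SE, adjusted p = 0.0269, limma). Lgals12 stood at 15.1 times the floor in FXR WAT and 24.2 times in control WAT. The adipogenin gene Adig (-0.45, 7.26 and 9.89 times the floor) fell and Lpl (0.28, 78.2 and 64.05 times the floor), the lipase that releases fatty acids from lipoproteins, rose, while Adipoq (-0.24, 28.8 and 33.9 times the floor), Plin1 (-0.29, 38.02 and 46.3 times the floor), Fabp4 (-0.20, 28.4 and 32.6 times the floor) and Slc2a4 (-0.18, 5.77 and 6.52 times the floor) did not pass. Among 19 transcription factors of fat cells 2 fell (10.5%, against 0.456% of all genes) and 17 did not pass. Pparg, the master regulator of fat cell formation, had 8.02, 7.98, 7.88 and 7.92 in FXR WAT, against 8.16, 8.35, 8.31 and 8.15 in control WAT, with every FXR array at least 0.13 log2 units below every control, and fell by 0.29 ± 0.05 log2 units (SE, adjusted p = 0.0435, limma). Pparg stood at 5.36 times the floor in FXR WAT and 6.54 times in control WAT, and without FXR WAT 1 the adjusted p was 0.0639 (limma). Ebf2 (-0.32, 2.07 and 2.58 times the floor) fell too, and Cebpa (-0.41, 8.38 and 11.1 times the floor), Ebf1 (-0.40, 5.94 and 7.84 times the floor) and Klf15 (-0.29, 2.58 and 3.15 times the floor) did not pass. Of the 8 fits with 1 array left out, 0 kept the call of Pparg and 0 that of Ebf2. Of the 10 alternatives with all arrays, 5 kept the call of Pparg and 7 that of Ebf2. Among 18 adipokines Lep rose (5.56%, against 0.873% of all genes) and 16 did not pass. Agt (-0.44, 11.7 and 15.8 times the floor), which encodes angiotensinogen, fell (5.56%, against 0.456%). Retn (-0.17, 47.3 and 53.2 times the floor) and Rbp4 (0.23, 16.7 and 14.2 times the floor) were among those that did not pass. With FXR WAT 1 left out, 1 mature adipocyte gene was lower, and 0 of the transcription factors and 0 of the adipokines were called.

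Of 29 genes of insulin signalling and glucose use 1 rose (3.45%, against 0.873% of all genes), 3 fell (10.3%, against 0.456%) and 25 did not pass, with a median change of -0.03. Those that fell were Fam13a, Irs1 and Grb14, and all 3 were lower without FXR WAT 1 too. Irs1, the docking protein of the insulin receptor, had 6.75, 6.96, 6.99 and 6.95 in FXR WAT, against 7.46, 7.46, 7.29 and 7.54 in control WAT. Its FXR arrays were all below its controls, and Irs1 fell by 0.52 ± 0.07 log2 units (SE, adjusted p = 0.0138, limma). Irs1 stood at 2.60 times the floor in FXR WAT and 3.73 times in control WAT. A second Irs1 probe set, at a level of 5.74 and so close to the floor, did not show this difference. Grb14, an adaptor that blocks the insulin receptor, had 6.62, 6.54, 6.65 and 6.58 in FXR WAT, against 6.93, 7.09, 7.25 and 7.09 in control WAT, and fell by 0.49 ± 0.06 log2 units (SE, adjusted p = 0.0129, limma). Grb14 stood at 2.09 times the floor in FXR WAT and 2.93 times in control WAT. The liver-type glycogen synthase gene Gys2 had 7.04, 7.51, 6.73 and 7.20 in FXR WAT, against 6.29, 6.07, 6.21 and 6.12 in control WAT. The controls were near the floor, and Gys2 rose by 0.94 ± 0.14 log2 units (SE, adjusted p = 0.024, limma). Gys2 stood at 3.00 times the floor in FXR WAT and 1.54 times in control WAT, and without FXR WAT 1 the adjusted p was 0.0505 (limma). Gys1 (-0.39, 6.09 and 7.98 times the floor), the muscle-type synthase gene, Insr (-0.30, 5.69 and 6.97 times the floor), Irs2 (-0.18, 2.37 and 2.68 times the floor), Akt2 (-0.17, 17.1 and 19.1 times the floor) and Pde3b (-0.51, 9.91 and 14.1 times the floor) did not pass. Among 20 hormone receptors and cAMP genes of fat cells 2 rose (10%, against 0.873% of all genes) and 18 did not pass. Those that rose were Oxtr and the prostaglandin receptor gene Ptger3 (0.42, 3.35 and 2.49 times the floor).

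Over the lists of fatty acid and cholesterol synthesis 3 of 44 genes rose (6.82%, against 0.873% of all genes), 0 fell and 41 did not pass; without FXR WAT 1, 1 was higher. Of 24 genes of fatty acid synthesis Fads3 (0.56, 16.9 and 11.4 times the floor) rose and 23 did not pass; 18 changes were above 0 and the median was 0.21 (0.08 without FXR WAT 1). The desaturase gene Scd2 (1.47, 20.6 and 7.41 times the floor), Fasn (0.69, 48.03 and 29.7 times the floor), Elovl6 (0.91, 4.71 and 2.49 times the floor) and Acly (0.50, 15.2 and 10.7 times the floor) had changes above 0, and none of these 4 passed. Of 20 genes of cholesterol synthesis 2 rose and 18 did not pass, with all 20 changes above 0 and a median of 0.20 (0.12 without FXR WAT 1). Hmgcs1, which makes the precursor of mevalonate, had 8.48, 8.43, 8.20 and 8.34 in FXR WAT, against 7.86, 7.87, 7.87 and 7.96 in control WAT, and rose by 0.47 ± 0.06 log2 units (SE, adjusted p = 0.0127, limma). Hmgcs1 stood at 7.13 times the floor in FXR WAT and 5.13 times in control WAT. The sterol cyclase gene Lss (0.32, 2.55 and 2.03 times the floor) rose, while Insig1 (0.84, 22.1 and 12.3 times the floor) and Srebf2 (0.04, 3.42 and 3.31 times the floor) did not pass. Of 20 genes of lipid droplets and lipolysis 0 passed, with Plin2 (0.40, 19.2 and 14.6 times the floor) and Ces1f (-1.07, 3.38 and 7.10 times the floor) nearest to the threshold, and of 18 genes of triglyceride synthesis 0 passed, with Mogat2 (0.74, 2.40 and 1.42 times the floor) and Gpat4 (-0.32, 3.53 and 4.40 times the floor) nearest. In the list of lipoprotein uptake Lpl and Vldlr rose (12.5%, against 0.873% of all genes) and 14 of 16 did not pass. Without FXR WAT 1, 0 of the 16 were called.

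Of 33 genes of oxidative phosphorylation 2 fell, the complex III core gene Uqcrc2 (-0.36, 8.58 and 11.01 times the floor) and the complex II flavoprotein gene Sdha (-0.34, 19.2 and 24.3 times the floor), and 31 did not pass. That is 6.06%, against 0.456% of all genes; 28 of the 33 changes were below 0, with a median of -0.07. Of 21 genes of fatty acid oxidation Eci1 (-0.37, 3.75 and 4.86 times the floor) and Echs1 fell, Cpt1a (0.27, 5.40 and 4.46 times the floor), the gate for fatty acid entry, rose, and 18 did not pass. The falls are 9.52% of that list and the rise 4.76%, against 0.456% and 0.873% of all genes. Of its 21 changes 17 were below 0, with a median of -0.02. Of 23 citric acid cycle and pyruvate genes 1 fell (4.35%, against 0.456% of all genes), Pdk2 (-0.48, 3.42 and 4.76 times the floor), and 22 did not pass. Of 18 brown fat genes Ebf2 fell (5.56%, against 0.456% of all genes) and 17 did not pass. Ppargc1a (-0.07, 1.35 and 1.42 times the floor) stayed near the floor. The chaperone gene Hspa5 (0.46, 27.4 and 19.9 times the floor) rose and Xbp1 (-0.18, 6.97 and 7.87 times the floor) fell among 23 genes of the unfolded protein response. Each is 4.35% of that list, against 0.873% and 0.456% of all genes. Sod2 (0.30, 6.15 and 4.97 times the floor), the mitochondrial superoxide dismutase gene, rose among 25 oxidative stress genes (4%, against 0.873%). The others of both lists did not pass. With FXR WAT 1 left out, 1 gene of the oxidative phosphorylation list (Uqcrc2) was lower, and 0 genes of fatty acid oxidation, the citric acid cycle, the brown fat list and the unfolded protein response were called.

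Among 28 inflammatory genes, those of the acute phase proteins Orm1 and Lbp rose (7.14%, against 0.873% of all genes). Orm1, a secreted acute phase glycoprotein, had 9.36, 9.34, 9.00 and 9.30 in FXR WAT, against 8.16, 7.79, 8.24 and 8.11 in control WAT. The lowest FXR array was 0.76 log2 units above the highest control, and Orm1 rose by 1.17 ± 0.11 log2 units (SE, adjusted p = 0.00437, limma). Orm1 stood at 13.2 times the floor in FXR WAT and 5.82 times in control WAT. Lbp, which binds bacterial lipopolysaccharide, had 10.23, 9.89, 10.28 and 10.65 in FXR WAT, against 9.08, 8.74, 9.50 and 9.42 in control WAT, and rose by 1.08 ± 0.19 log2 units (SE, adjusted p = 0.0381, limma). Lbp stood at 26.7 times the floor in FXR WAT and 12.6 times in control WAT, and without FXR WAT 1 the adjusted p was 0.0786 (limma). The other 26 of 28 inflammatory genes did not pass, Lcn2 (1.23, 5.04 and 2.13 times the floor) among them, and Il6 (-0.02, 1.10 and 1.11 times the floor), Il1b (-0.02, 1.18 and 1.19 times the floor) and Saa1 (-0.01, 1.10 and 1.11 times the floor) were near the floor. The median change of the list was 0.02, and without FXR WAT 1, 1 of the 28 was higher.

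Markers of other cell types were mostly not called. Of 26 macrophage genes 0 passed; 22 changes were above 0, the median was 0.20 and the summed intensity was 5115 to 6364 in FXR WAT and 4527 to 5920 in control WAT, with Trem2 (0.23, 1.76 and 1.49 times the floor) and Lgals3 (0.55, 6.31 and 4.30 times the floor) nearest to the threshold. Of 18 progenitor and fibroblast genes 0 passed, with a median of 0.15 and sums of 3823 to 4576 in FXR WAT and 2823 to 4256 in control WAT, and Pdgfra (0.43, 11.6 and 8.57 times the floor) had an adjusted p of 0.0512 (limma). Control WAT 3, the control with the highest sums of both lists, was also the control with the highest Lep, Mgp, Eln and Col6a2. Cilp was higher on control WAT 4 (7.62) than on control WAT 3 (7.51). FXR WAT 4, the FXR array with the highest sums of both lists, was the lowest FXR array for Mgp (9.03). The part of these cells in the matrix results was not tested. Of 19 endothelial genes Btnl9 fell (5.26%, against 0.456% of all genes) and 18 did not pass. The sums of this list were 2695 to 3778 in FXR WAT and 3075 to 3767 in control WAT. Of 13 mural genes the filament gene Des (0.27, 2.18 and 1.80 times the floor) rose (7.69%, against 0.873% of all genes) and 12 did not pass. Of 17 nerve and Schwann cell genes Slc5a7 rose (5.88%, against 0.873%) and 16 did not pass. None of the 24 lymphocyte, 18 mesothelial, 18 epithelial, 26 skeletal muscle, 7 erythroid and platelet, 13 hepatocyte, 23 cell cycle, 24 hypoxia and angiogenesis or 20 immediate early genes passed.

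The changes in WAT were set beside those in BAT. In BAT, 15.8% of all genes passed, 7.01% higher and 8.75% lower. Of the 265 genes called in WAT, 119 passed in BAT in the same direction (44.9% of the WAT calls and 3.79% of the 3142 BAT calls), 20 passed in the opposite direction (7.55%) and 126 did not pass in BAT. The difference of the changes was tested for each gene over the 18 arrays, and 1288 genes (6.46%) passed, 885 more positive and 403 more negative in WAT; with each array centred on its median these became 1627 and 245. Of the genes called in WAT, 95 had such a difference, 55 more positive and 40 more negative in WAT. More probe sets lay near the floor in WAT than in BAT, where 28.7% to 34.9% lay within 1.5 times the floor, and the part of this in the differences was not tested.

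Gys2 was the gene with opposite calls and the largest difference among the genes named here: it changed by 0.94 log2 units in WAT and -1.67 ± 0.26 in BAT, a difference of 2.61 ± 0.35 (adjusted p = 0.000366, limma). Paqr9 changed by 1.23 in WAT and -0.76 ± 0.12 in BAT, a difference of 1.99 ± 0.27 (adjusted p = 0.00039, limma). Grb14 changed by -0.49 in WAT and 0.48 ± 0.11 in BAT, and Podn by -0.45 in WAT and 0.62 ± 0.07 in BAT. Hmgcs1, Vldlr, Lpl, Hspa5 and Sod2, all higher in FXR WAT, were lower in FXR BAT, by 0.25 to 0.46 log2 units. Fam13a fell in WAT and had a change of -0.07 ± 0.18 in BAT, where it did not pass, a difference of -1.60 ± 0.32 (adjusted p = 0.00574, limma), and Oxtr, Mtarc1, Orm1, Slc5a7 and Peg10 differed between the tissues in the other direction, by 1.02 to 1.44 log2 units. For Mest, Cilp, Eln, Mgp and Lep a difference between the tissues did not pass: the WAT changes exceeded those in BAT by 0.77 ± 0.25, -0.37 ± 0.13, 0.29 ± 0.34, -0.35 ± 0.16 and 0.31 ± 0.35.

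**Figure D5:**
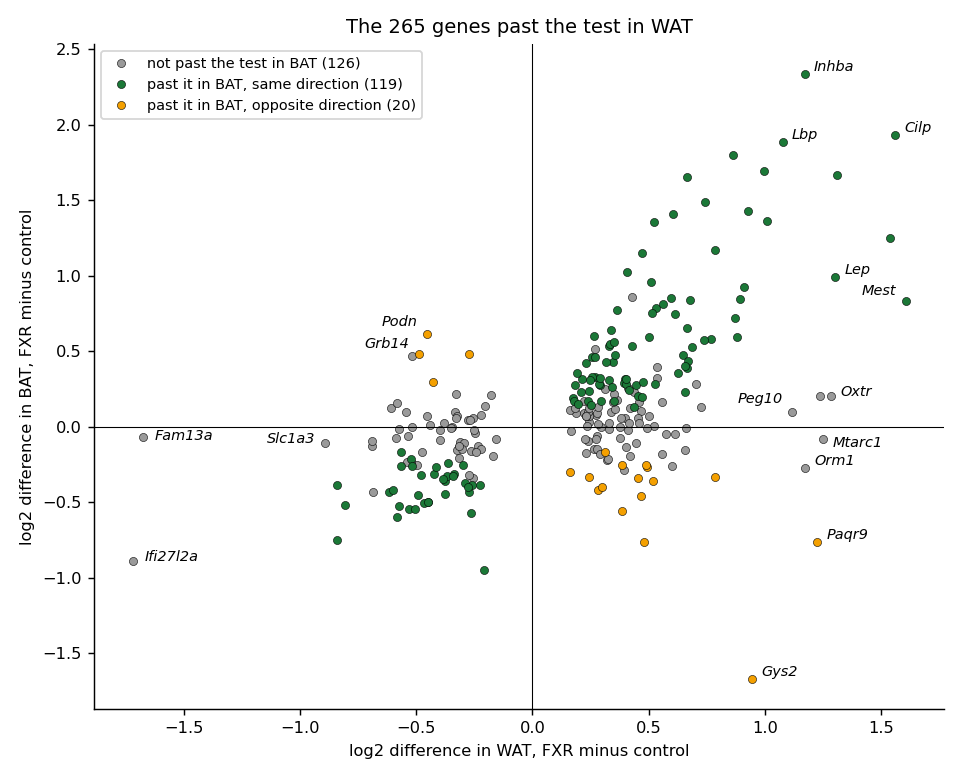
Log2 difference in BAT against that in WAT, each FXR minus control, for the 265 genes called in WAT; green points (119) passed in BAT in the same direction, orange points (20) in the opposite direction and grey points (126) did not pass in BAT. Gys2 lies lowest, at 0.94 in WAT and -1.67 in BAT.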

How the data were processed

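RNA of WAT and BAT was hybridised to Affymetrix mouse arrays, 1 sample per array. The deposited values are linear intensities per probe set, per the labels' value table; summarisation, background correction and normalization are not given in the sources used here. Values were used as log2(intensity + 1). Of 34760 probe sets, 21640 carried 1 gene symbol, 1321 several and 11799 none; 21553 of the first matched RefSeq, and 2 of the other 13120 passed the test. The brightest probe set over the 18 arrays stood for each of the 954 genes with several, which gave 19937 genes. Groups were compared with limma 3.58.1 in R 4.3.3 (with the package data.table, version 1.17.8): lmFit and eBayes on the 8 WAT arrays, two-sided, with Benjamini-Hochberg adjustment over all genes and a threshold of 0.05. The difference between tissues used all 18 arrays. The fit was tested on simulated data. The number of arrays limits the precision.

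The text names Nr1h4 and Nr0b2, the 15 called genes that rose most and the 15 that fell most, if their groups do not overlap and the higher mean is at least 1.5 times the floor, without predicted genes, receptor families, small RNAs and immune segments, up to 6 called genes of each of 52 lists or the 2 with the smallest p, and the 10 genes with the largest excess on FXR WAT 1. Other uncalled list members, and the genes of the closing section, were chosen after their values were seen. The members and the lists were chosen with earlier results of these data known. Alternatives were other scalings, pseudocounts, filters, probe set rules, variance priors, a replicate block and leaving out each array.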

Additional observations from a re-analysis of the deposited data

Results flagged for a closer look

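In 14 of 270 groups of 4 arrays tested for a lone high or low value, 1 array lay far from the other 3; chance flags about 1 in 20 groups. Of these 14, 9 lie in the 10 genes that were chosen for their excess on FXR WAT 1, and 5 lie in the 250 groups of the other genes. Among the 9, those on FXR WAT 1 only describe that choice, while those of Prm2, Rnase9 and Spink8 on control arrays do not. FXR WAT 1 was the high array for Lcn5 (8.43), Prm2 (8.56), Ptgs2 (10.31), Slco2a1 (9.59), Odf1 (8.37) and Rnase9 (7.25), all as log2 levels. Among called genes, Orm1 was low on FXR WAT 3 (9.00, with its group's other values at 9.30 to 9.36), Slc5a7 was low on FXR WAT 4 (6.41, with the others at 7.19 to 7.35), and Hmgcs1 was high on control WAT 4 (7.96, with the others at 7.86 to 7.87). The remaining lone values were Igfbp5 at 9.49 on FXR WAT 2, Prm2 at 6.26 and Rnase9 at 5.82 on control WAT 1, Spink8 at 7.09 on control WAT 3 and Mogat2 at 5.99 on control WAT 3.

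For 41 genes named by the rule, the FXR change differed between WAT and BAT in limma's test over the 18 arrays with Benjamini-Hochberg adjustment; the values are WAT change minus BAT change in log2 units. Among genes higher in FXR WAT, the WAT change was the more positive for Gys2 (2.61), Paqr9 (1.99), Orm1 (1.44), Mtarc1 (1.34), Oxtr (1.08), Slc5a7 (1.03), Peg10 (1.02), Hmgcs1 (0.93), Hspa5 (0.80), Vldlr (0.74), Sod2 (0.70), Lpl (0.70), Ctsl (0.43), Fstl3 (0.31) and Spon1 (0.27). Among these genes it was the more negative for Inhba (-1.16), Mfap4 (-0.99), Bgn (-0.93), Fbln1 (-0.81), Serpinf1 (-0.75), Sfrp1 (-0.69) and Tgfb3 (-0.62). Among genes lower in FXR WAT, it was the more negative for Fam13a (-1.60), Podn (-1.07), Grb14 (-0.97), Slc1a3 (-0.78), Slc43a1 (-0.74), Hipk3 (-0.73), Nr1d1 (-0.59), Sik2 (-0.51), Agt (-0.46), Sfxn1 (-0.45) and Xbp1 (-0.39). Genes that did not pass in WAT but differed between the tissues were Angpt1 (-1.01), Pdgfra (-0.95), Myc (-0.89), Plin2 (0.71), Mogat2 (0.65), Igfals (0.54), Bnc2 (-0.43) and Cd2 (-0.22). The means of Cd2 stood at 1.34 times the floor in FXR WAT and 1.51 times in control WAT, and those of Rnase9 at 1.49 times in FXR WAT and 1.17 times in control WAT. Angpt1 stood at 1.76 times in FXR WAT and 2.47 times in control WAT, and Myc at 1.99 times in FXR WAT and 2.37 times in control WAT. Bnc2 stood at 2.84 times in FXR WAT and 3.41 times in control WAT, and Slco2a1 at 5.64 times in FXR WAT and 3.51 times in control WAT.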

How the results depend on the processing

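Leaving out 1 array gave 23 to 243 genes higher and 22 to 93 lower, against 174 and 91 over all 8 arrays. Without control WAT 1 more genes were lower (26) than higher (23); the lowest count of lower genes came without control WAT 2 (22). Removing both FXR WAT 1 and FXR WAT 4, chosen after seeing the data, left 21 higher and 8 lower, and 28 of the 265 calls remained; each such fit has fewer samples. Estimating the spread over all 18 arrays gave 294 higher. Over the other 9 alternatives the counts lay between 125 and 239 higher and between 67 and 136 lower, both highest when dim genes were removed before the test (9726 genes tested). Deviations from the group mean of each gene were also correlated between FXR and control WAT arrays. Same-numbered arrays had correlations of these deviations of 0.0997, 0.157, 0.0785 and 0.00853, and differently numbered arrays of -0.236 to 0.13. The numbers were not taken as pairs. With a replicate block 135 genes were higher and 102 lower. Of the 89 called genes named by the rule, 42 kept their call under all 10 alternatives with all arrays, and 15 whichever array was left out. No called gene among those named changed sign under any alternative run, and 8 uncalled genes did. Apoa2, at 4.42 times the floor in FXR WAT and 5.13 times in control WAT, changed by -0.22 over all arrays and by -0.44 to 0.019 with 1 array left out, the highest without control WAT 3. With 1 array left out, the lowest always without FXR WAT 1, the changes were -0.61 to 0.92 for Serpina1f (0.42 over all arrays), -0.68 to 0.81 for Ptgs2 (0.35), -0.028 to 1.02 for Spink8 (0.64), -0.18 to 0.61 for Odf1 (0.38) and -0.027 to 0.48 for Rnase9 (0.35). With both FXR WAT 1 and FXR WAT 4 removed these 5 genes had -0.82, -0.71, -0.31, -0.18 and -0.063, while Fads2 had -0.080, against 0.61 over all arrays, and Cd52 had -0.079, against 0.53. For the difference between WAT and BAT, 885 genes were more positive in WAT, against 1627 with arrays centred on their median and 525 after quantile normalization, and 403 were more negative, against 245 with arrays centred on their median; the cause was not tested. Signal near the floor limits 49.7% of genes.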

Other observations

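Other called genes, outside the lists, were picked after their values were seen. Ctsd, the lysosomal protease cathepsin D, rose by 0.66 ± 0.07 log2 units in FXR WAT (adjusted p = 0.00734, limma), at 58.2 times the floor in FXR WAT and 36.8 times in control WAT, and kept its call whichever array was left out. Its change in BAT was -0.15. Mrc2, the collagen uptake receptor Endo180, rose by 0.74 ± 0.09 (adjusted p = 0.00946, limma), at 3.36 times the floor in FXR WAT and 2.00 times in control WAT. Fam20c, a kinase of secreted proteins, rose by 0.77, at 4.99 times the floor in FXR WAT and 2.91 times in control WAT. Pam, which amidates peptide hormones, rose by 0.78, at 13.1 times the floor in FXR WAT and 7.59 times in control WAT. Tuba1a, an alpha tubulin gene, rose by 0.88, at 88.6 times the floor in FXR WAT and 48.0 times in control WAT. Trp53inp2, which takes part in autophagy, rose by 0.78 in WAT and changed by -0.34 in BAT, where it passed the test in the opposite direction; it stood at 9.71 times the floor in FXR WAT and 5.61 times in control WAT. Septin9, a cytoskeletal GTPase gene, did likewise, at 0.48 in WAT and -0.76 in BAT, and stood at 3.98 times the floor in FXR WAT and 2.84 times in control WAT.

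Among the falls, Sctr, the secretin receptor gene, had -0.43 ± 0.04 log2 units in WAT (adjusted p = 0.00432, limma), at 1.66 times the floor in FXR WAT and 2.24 times in control WAT, and 0.30 in BAT. The brackets that follow give the log2 change and the means in FXR WAT and in control WAT in multiples of the floor. The carnitine acetyltransferase gene Crat (-0.47, 12.2 and 16.9 times the floor), the cytosolic aconitase gene Aco1 (-0.50, 12.2 and 17.2 times) and the alcohol dehydrogenase gene Adhfe1 (-0.42, 9.57 and 12.8 times) fell, and Adhfe1 kept its call whichever array was left out. Other falls were those of the phosphorylase gene Pygb (-0.45, 13.4 and 18.3 times), the phosphorylase kinase subunit gene Phka2 (-0.47, 5.40 and 7.48 times), the phosphoglucomutase gene Pgm1 (-0.30, 10.97 and 13.4 times), the growth factor gene Fgf10 (-0.38, 2.09 and 2.71 times) and the Wnt effector gene Tcf7l2 (-0.33, 2.31 and 2.91 times).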
